A study of Homo sapiens with 11 samples.

Results

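The response of THP-1 macrophages to dexamethasone was measured across a panel of immune genes. THP-1 is an established human monocytic leukaemia cell line, and dexamethasone (Dex) is a synthetic glucocorticoid. The macrophages were made by treating THP-1 monocytes with the phorbol ester PMA for 3 h, followed by 24 h of recovery and 24 h in charcoal-stripped medium, which holds little steroid hormone. They then received vehicle (Mac_Vehicle, 3 samples, numbered 1, 3 and 5) or 100 nM Dex (Mac_Dex, 2 samples, numbered 1 and 5) for 6 h. Vehicle-treated and Dex-treated THP-1 monocytes (3 samples each) spent the same time in stripped medium without PMA and served here for the spread of the measurements and for a comparison of responses. RNA was read on the NanoString nCounter, in which fluorescently tagged probes bind the transcripts and are tallied without amplification, and the values are a normalized signal in units that have no absolute scale. All cells come from 1 line, the labels do not say that samples were separate cultures, and fewer cells expressing a gene cannot be told apart from less RNA per cell.

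Genes were included when their mean reached 20 units in Mac_Vehicle or in Mac_Dex. This held for 365 of the 594 endogenous probes, of which 338 passed in both groups, 14 only with Dex and 13 only with vehicle. The last 2 sets had to differ between the groups to be included, so counts over the 365 describe them and support nothing. The genes nearest the limit were TCF7 (20.02 units with vehicle), IDO1 (20.09 with Dex) and PDCD1LG2 (20.9 with vehicle) above it, and C6, CD27 and GBP5, at 19.3, 19.2 and 19.03 units in their higher group, below it.

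The glucocorticoid receptor is a transcription factor that is held in the cytoplasm by chaperones until a steroid binds it. In the nucleus it raises genes such as FKBP5 directly and holds down genes driven by the inflammatory factors NF-kB and AP-1, which is the basis of the anti-inflammatory use of steroids. In macrophages it is known for lowering cytokines and chemokines and for raising scavenger receptors such as CD163.

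The authors left out 1 Dex-treated macrophage sample for clustering among the vehicle-treated macrophages and for lacking a rise of FKBP5. Every rise and fall below was therefore measured in samples that had been kept for showing a response. Summed signal over the endogenous probes ran from 742895 to 819439 units in Mac_Vehicle and was 831833 and 889658 in Mac_Dex. Replicates correlated with Pearson r from 0.988 to 0.990 across the tested genes. Mac_Dex replicate 1 lay below replicate 5 in 283 of the 365 genes (77.5%), and Mac_Vehicle replicate 1 was the highest vehicle sample in 249 (68.2%). The state was checked against its markers. Of 12 macrophage markers 11 reached 20 units, with MRC1, the mannose receptor, between 1.21 and 2.71 units in each macrophage sample. None of 12 T-cell markers and none of 5 stromal and endothelial markers reached 20 units in either group. Of 7 B-cell markers 2 did, of 8 NK-cell markers NCAM1 did, and of 7 granulocyte markers CEACAM6, CTSG and CXCR2 did. The summed signal of the macrophage markers was 39910.3 to 45283 units with vehicle and 35854 to 36692 with Dex, and that of the NK-cell markers 3209 to 3651 and 2792.5 to 2856, both without overlap. The B-cell markers summed to 67.4 to 73.3 units with vehicle and 94.4 to 99.1 with Dex, and the granulocyte markers to 1303 to 1531 and 1369.6 to 1382. The part of these shifts in the results below was not tested.

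Of the 365 genes, 84 rose and 94 fell with Dex (limma, Benjamini-Hochberg adjusted p under 0.05), against 22.4% rising and 25.1% falling among all 379 probes tested. These shares also stand for each list count below that is given without them. The lists were chosen with earlier results of these data known, so their counts describe the lists and support nothing. Among the risers 25 changed 2-fold or more and 12 changed 4-fold or more, and among the fallers these were 31 and 9. The groups did not overlap in 220 of the 365 genes, against 58.6% of all tested probes. How rises and falls balanced varied with the scaling. With samples centred on their medians, the median log2 change of all tested probes was 0.19 in place of -0.03, and rises made up 67.3% of calls in place of 47.2%. The direction of small changes is therefore not settled. Without Mac_Dex replicate 1, the number of falls among all tested probes went from 95 to 67. At 20 to 100 units with vehicle, 7 of 67 genes rose and 11 fell. At 100 to 1000 units these were 38 and 59 of 173, and at 1000 to 10000 units 23 and 23 of 97. At 10000 units or more they were 5 and 1 of 14. The 14 genes under 20 units with vehicle, of which 11 rose, were included through their Dex level alone.

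**Figure D1:**
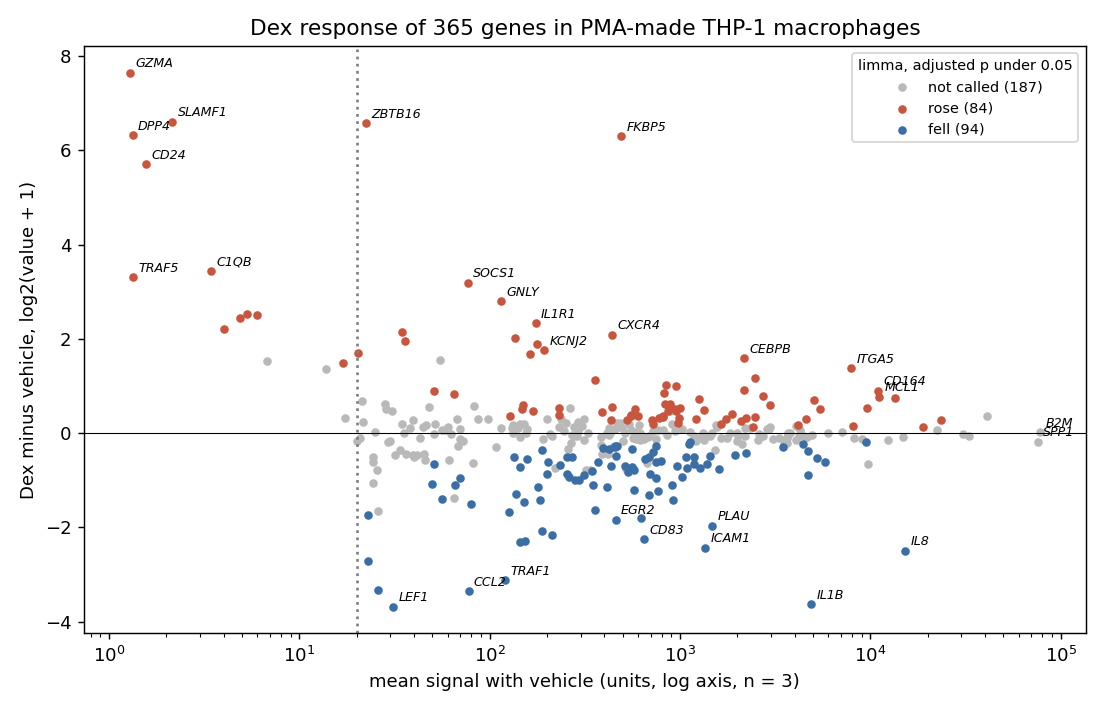
Log2 change with Dex (y axis) against mean vehicle signal (x axis, log scale) for the 365 genes in macrophages, one point per gene, coloured by the limma call; the dotted line marks 20 units. The rises reach from genes under 20 units with vehicle, among them GZMA, SLAMF1, DPP4 and CD24, to genes above 10000 units, and genes left of the dotted line were included through their Dex level alone.

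Sequences of 4 start regions are shown because these genes belong to the NF-kB pathway or are textbook targets of it and moved in different directions. They are RefSeq windows of 300 bases on GRCh38.p14, from 250 bases before to 50 after the gene start, with matches to the kappaB letters GGAANNTCC on either strand in capitals. CXCL8 (chr4:73740319-73740618, plus strand), measured here under its older name IL8, and ICAM1 (chr19:10270870-10271169, plus strand) fell. NFKBIA (chr14:35404700-35404999, minus strand) and NLRP3 (chr1:247415923-247416222, plus strand) rose.
CXCL8: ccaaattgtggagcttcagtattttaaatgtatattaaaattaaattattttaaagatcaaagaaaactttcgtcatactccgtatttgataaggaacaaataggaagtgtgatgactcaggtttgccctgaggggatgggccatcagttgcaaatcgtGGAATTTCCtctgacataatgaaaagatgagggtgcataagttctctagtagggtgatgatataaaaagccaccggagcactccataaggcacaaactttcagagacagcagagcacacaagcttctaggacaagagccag
ICAM1: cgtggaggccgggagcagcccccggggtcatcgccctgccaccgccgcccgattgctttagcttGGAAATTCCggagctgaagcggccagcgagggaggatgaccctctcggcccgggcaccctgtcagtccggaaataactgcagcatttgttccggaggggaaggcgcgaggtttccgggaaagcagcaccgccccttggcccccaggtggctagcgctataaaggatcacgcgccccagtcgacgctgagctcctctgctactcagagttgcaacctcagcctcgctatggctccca
NFKBIA: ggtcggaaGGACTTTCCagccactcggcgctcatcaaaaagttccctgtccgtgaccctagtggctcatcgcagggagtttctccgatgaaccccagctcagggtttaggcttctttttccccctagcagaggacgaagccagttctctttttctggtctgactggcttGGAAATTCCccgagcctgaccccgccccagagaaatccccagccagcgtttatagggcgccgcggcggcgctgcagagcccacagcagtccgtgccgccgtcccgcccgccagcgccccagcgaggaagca
NLRP3: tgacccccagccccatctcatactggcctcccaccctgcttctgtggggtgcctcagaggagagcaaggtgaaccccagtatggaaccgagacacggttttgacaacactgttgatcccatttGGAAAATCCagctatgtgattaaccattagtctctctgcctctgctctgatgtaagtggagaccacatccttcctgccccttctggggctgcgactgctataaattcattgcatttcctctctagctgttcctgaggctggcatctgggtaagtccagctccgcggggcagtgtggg
The windows of CXCL8, ICAM1 and NLRP3 held 1 match each and that of NFKBIA held 2. Over all RefSeq windows 4.56% held a match, and 32 of the 292 genes of this set with a window did. The share was 9 of 69 among genes that rose, 10 of 75 among those that fell and 13 of 148 among the others. The glucocorticoid response element, searched as GNACA and TGTNC with 3 bases between them, occurred in 0.39% of all windows and in 1 of the 292, that of C1QB. A match describes letters in a window and is not a binding site.

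The best-known receptor targets rose together. FKBP5, a co-chaperone that lowers the receptor's affinity for its hormone, read 435, 407 and 623 units with vehicle and 38036 and 37306 with Dex. Both Dex samples lay far above all vehicle samples, 77.1-fold in the means, but samples had been kept partly for this gene. ZBTB16, a zinc-finger transcription repressor also known as PLZF, read 16.5, 23.6 and 26.96 units with vehicle and 2178 and 2193 with Dex. Its vehicle level sits at the limit of 20 units, so the size of its rise (6.58 in log2) is uncertain. CXCR4, the receptor of the chemokine CXCL12, read 435, 487 and 388 units with vehicle and 1803 and 1897 with Dex, a 4.24-fold rise. CD163, the haemoglobin scavenger receptor, read 165, 204 and 162 units with vehicle and 597 and 709 with Dex, 3.69-fold higher with Dex. CEBPB, a transcription factor of the acute phase and of macrophage activation, rose from 2164 ± 113 to 6536 ± 336 units. The list of glucocorticoid targets had 13 genes in the set and all 13 rose, but several were put on it with their rise in these data known, so this count is no support.

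**Figure D2:**
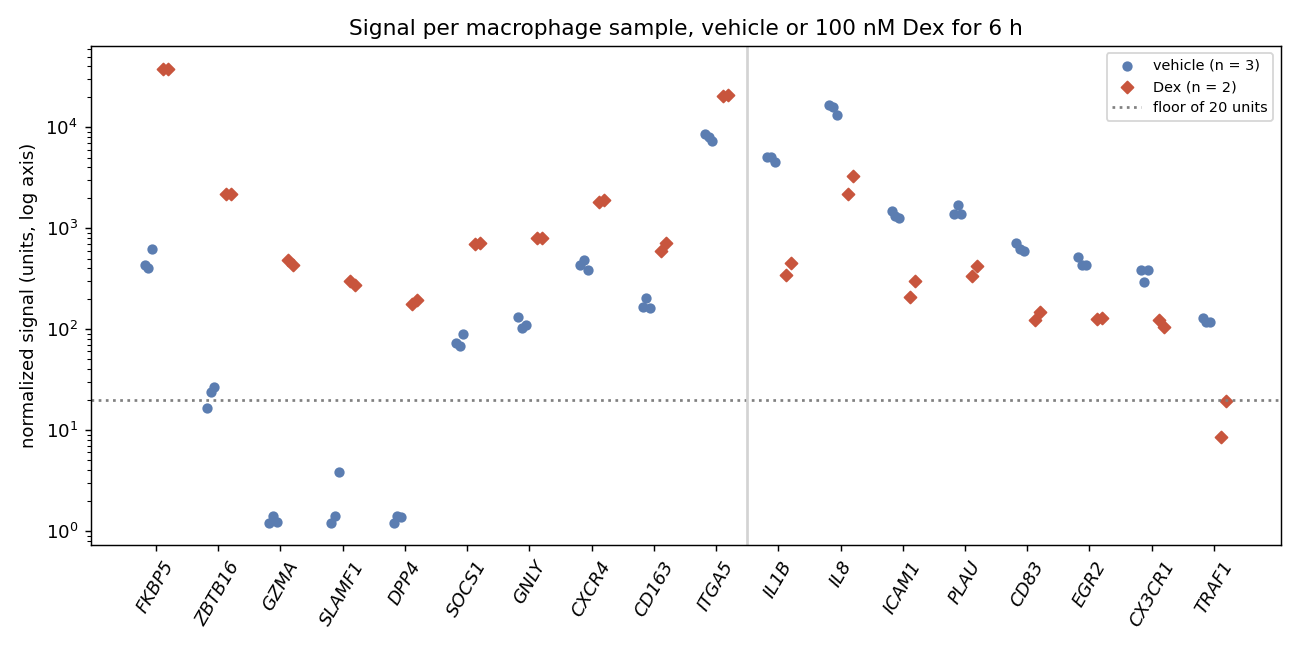
Normalized signal (y axis, log scale) of 18 genes in each macrophage sample, circles for the 3 vehicle samples and diamonds for the 2 Dex samples, with the floor of 20 units dotted. In each of the 18 genes the Dex samples lie on one side of all vehicle samples, above in the 10 on the left and below in the 8 on the right.

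Several genes that are best known from lymphocytes rose with Dex. GZMA, a granule protease of cytotoxic cells, was at the lowest value of each vehicle sample (1.21 to 1.42 units) and read 479 and 434 units with Dex, at least 22.8-fold higher. SLAMF1, a self-ligand receptor of lymphocytes and phagocytes, read 1.21, 1.42 and 3.80 units with vehicle and 298 and 275 with Dex, at least 14.3-fold higher. GNLY, a cytolytic granule protein, read 133, 102 and 109 units with vehicle and 791 and 806 with Dex, a 6.98-fold rise. The defining T-cell genes CD3D and CD3E stayed at 11.1 units or less in each macrophage sample, and the summed signal of 12 T-cell markers was 22.3 to 32.1 units with vehicle and 17.6 to 32.1 with Dex. The other granule genes GZMB, GZMK and PRF1 stayed under 20 units in both groups. CTSC, the protease that activates granzymes, went from 13466 ± 486 to 22673 ± 999 units and CTSG, a neutrophil granule protease, read 1435, 1278 and 1225 units with vehicle and 1307 and 1301 with Dex (adjusted p = 0.957). The surface genes DPP4, a peptidase that trims chemokines, and CD24, a glycoprotein, rose from under 3 units to 176 and 194 units and 120.4 and 141 units, at least 9.26-fold and at least 6.53-fold higher.

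In the interleukin 1 family 4 of 9 genes rose, all of them receptor chains, and 4 fell, all of them ligands or the antagonist, beside 22.4% and 25.1% of all tested probes. IL1B, the secreted fever cytokine, read 5066, 5023 and 4479 units with vehicle and 339.5 and 452 with Dex. Both Dex samples lay far below all vehicle samples, a 12.3-fold fall. IL1A, the cell-bound form, fell from 22.9 ± 4.36 to 2.85 ± 1.95 units, at least 1.14-fold, and was included through its vehicle level alone. Its call was lost with values under 20 set to 20 (adjusted p = 0.144). IL1RN, the receptor antagonist, fell 3.46-fold, from 621 ± 83.95 to 179.6 ± 50.5 units. Among receptors, the signalling receptor IL1R1 read 173, 174 and 174 units with vehicle and 773 and 992 with Dex and rose 5.07-fold, and the decoy receptor IL1R2 read 37.1, 29.2 and 37.9 units with vehicle and 173 and 142 with Dex and rose 4.54-fold. The accessory chain IL1RAP rose by 0.37 in log2, a call that ended without Mac_Dex replicate 5 (log2 change 0.32, adjusted p = 0.0687). Of 7 inflammasome and NOD genes 2 rose and none fell in limma, where 1 fell at an unadjusted p under 0.05; without Mac_Dex replicate 5, 2 fell. NLRP3, the inflammasome sensor, read 947, 954 and 949 units with vehicle and 1756 and 2061 with Dex, a 2.01-fold rise with no overlap. NOD2, a sensor of bacterial peptidoglycan, read 57.8, 66.2 and 28.2 units with vehicle and 74.8 and 106 with Dex, and its call ended without Mac_Dex replicate 5 (log2 change 0.64, adjusted p = 0.238) or Mac_Vehicle replicate 5 (log2 change 0.52, adjusted p = 0.142), as it did without any 1 of 4 monocyte samples. CASP1, the protease that matures IL1B, read 501, 436 and 428 units with vehicle and 449.8 and 515 with Dex, and the groups overlapped (adjusted p = 0.416).

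Of 14 chemokine genes 7 fell and 1 rose, beside 25.1% and 22.4% of all tested probes. The median log2 change was -0.63 beside -0.03 over all tested probes. Of the called chemokines, CCL2 and CXCL12 were included through 1 group alone. IL8, which attracts neutrophils, read 16639, 15932 and 13198 units with vehicle and 2203 and 3277 with Dex, a 5.57-fold fall. CXCL2 and CXCL1, which act on the same receptor, fell 4.31-fold and 1.92-fold, with CXCL2 at 209, 228 and 200.1 units with vehicle and 33.6 and 64.98 with Dex. CCL2, which attracts monocytes, read 88.1, 80.4 and 63.5 units with vehicle and 1.47 and 22.5 with Dex, at least 3.87-fold lower, with log2 change -1.73, adjusted p = 0.00153 without Mac_Dex replicate 1. CCL3 went from 765 ± 122 to 328 ± 87.7 units and CCL5 from 4412 ± 199 to 3754 ± 338 units, the latter not called after median-centring (log2 change -0.01, adjusted p = 0.9). The single rise was CXCL12, the ligand of CXCR4, at 22.6, 12.2 and 15.99 units with vehicle and 60.1 and 37.6 with Dex. CCL20 read 975, 866 and 811 units with vehicle and 970.5 and 1546 with Dex and the interferon-induced CXCL10 read 296, 229.5 and 134 units with vehicle and 74.8 and 205 with Dex; both groups overlapped and neither was called (adjusted p = 0.508 and 0.321). After centring on medians 5 chemokines fell instead of 7. Without Mac_Dex replicate 1, 4 fell, and CCL5 (log2 change -0.14, adjusted p = 0.144), CXCL1 (log2 change -0.55, adjusted p = 0.0708) and CXCL12 (log2 change 1.15, adjusted p = 0.0542) were no longer called.

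Other secreted cytokines were mostly low. Of 9 pro-inflammatory cytokine genes above the limit, 4 fell and 1 rose, beside 25.1% and 22.4% of all tested probes. Of those called, LIF and IL15 were included through 1 group alone. IL6, IL12A, IL12B, IFNG, CSF2 and 12 others were under 20 units in both groups. TNF read 588, 536 and 467 units with vehicle and 217 and 402 with Dex and fell 1.71-fold. The size of this fall (log2 change -0.83) varied with the Dex sample left out, with log2 change -0.39, adjusted p = 0.0335 without replicate 1 and log2 change -1.28, adjusted p = 5.07e-06 without replicate 5. LIF, a cytokine of the IL6 family, fell from 25.97 ± 10.8 to 1.50 ± 0.04 units, at least 1.30-fold. IL15, a growth factor of NK and memory T cells, rose from under 9 units to 21.8 and 63.5, at least 2.13-fold, with log2 change 1.76, adjusted p = 0.0418 without Mac_Dex replicate 5. IL32, a cytokine of lymphocytes and monocytes, read 33839.8, 42927 and 45892 units with vehicle and 41031 and 66568 with Dex, and its groups overlapped (adjusted p = 0.143). Of the genes that oppose inflammation, IL10 stayed under 7 units in each macrophage sample. TGFB1 read 4585, 3959 and 3698 units with vehicle and 3597 and 3751 with Dex and TNFAIP3, the ubiquitin-editing inhibitor A20, read 1058, 870.2 and 904 units with vehicle and 837 and 1108 with Dex, neither called (adjusted p = 0.127 and 0.857).

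Of 6 TNF family ligand genes 5 fell and none rose in limma, beside 25.1% and 22.4% of all tested probes, and none rose at an unadjusted p under 0.05 either. TNFSF15 read 175, 122 and 162 units with vehicle and 30.7 and 30.1 with Dex, a 5.04-fold fall, TNFSF10, the death ligand TRAIL, went from 137 ± 32.01 to 59.9 ± 37.2 units, and CD70 from 270.4 ± 49.8 to 187 ± 6.29 units. Without Mac_Dex replicate 1, 3 of the 5 falls were called, and that of TNFSF10 was not (log2 change -0.63, adjusted p = 0.105). Of 15 receptors and TRAF adaptors 5 fell and 3 rose, with TRAF1 and TRAF5 included through 1 group alone. TRAF1, itself an NF-kB target, read 128, 117 and 117 units with vehicle and 8.60 and 19.4 with Dex, at least 6.04-fold lower, and TRAF3 fell from 569 ± 19.1 to 338 ± 58.4 units. CD40, the receptor for T-cell help, went from 178 ± 6.74 to 80.5 ± 3.88 units. TRAF5 was at the lowest value in each vehicle sample and at 20.4 and 23.97 units with Dex, a rise that was lost with values under 20 set to 20 (adjusted p = 0.3). The lymphotoxin receptor LTBR rose by 0.33 in log2.

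Of 13 NF-kB genes 3 rose and 4 fell, beside 22.4% and 25.1% of all tested probes. The same numbers held with the housekeeping scaling, while median-centring gave 8 and 4 and quantile normalization 6 and 4. NFKBIA, which holds NF-kB in the cytoplasm, read 5469, 4935 and 4735 units with vehicle and 7815 and 8486 with Dex, a 1.62-fold rise. NFKBIZ, a nuclear cofactor of the same ankyrin-repeat family, read 132, 141 and 135 units with vehicle and 507 and 604 with Dex, a 4.08-fold rise. BCL3, another nuclear member of that family, moved the other way and read 185, 149 and 98.9 units with vehicle and 21.8 and 34.6 with Dex, 5.11-fold lower. The subunits of the alternative pathway, NFKB2 and RELB, fell 1.62-fold and 1.60-fold, with RELB at 241, 251 and 209 units with vehicle and 147 and 145 with Dex. The subunits of the classical pathway were not called, with RELA at 358, 322 and 261 units with vehicle and 366 and 395 with Dex (adjusted p = 0.102) and NFKB1 at 296, 248 and 265 units with vehicle and 220.4 and 313 with Dex (adjusted p = 0.864). The groups of RELA did not overlap, and it was called higher with median-centring (log2 change 0.51, adjusted p = 0.00172), with quantile normalization (log2 change 0.43, adjusted p = 0.00365) and without Mac_Vehicle replicate 1 (log2 change 0.39, adjusted p = 0.035). BCL10 rose by 0.52 and its partner MALT1 fell by 0.55 on the log2 scale.

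**Figure D3:**
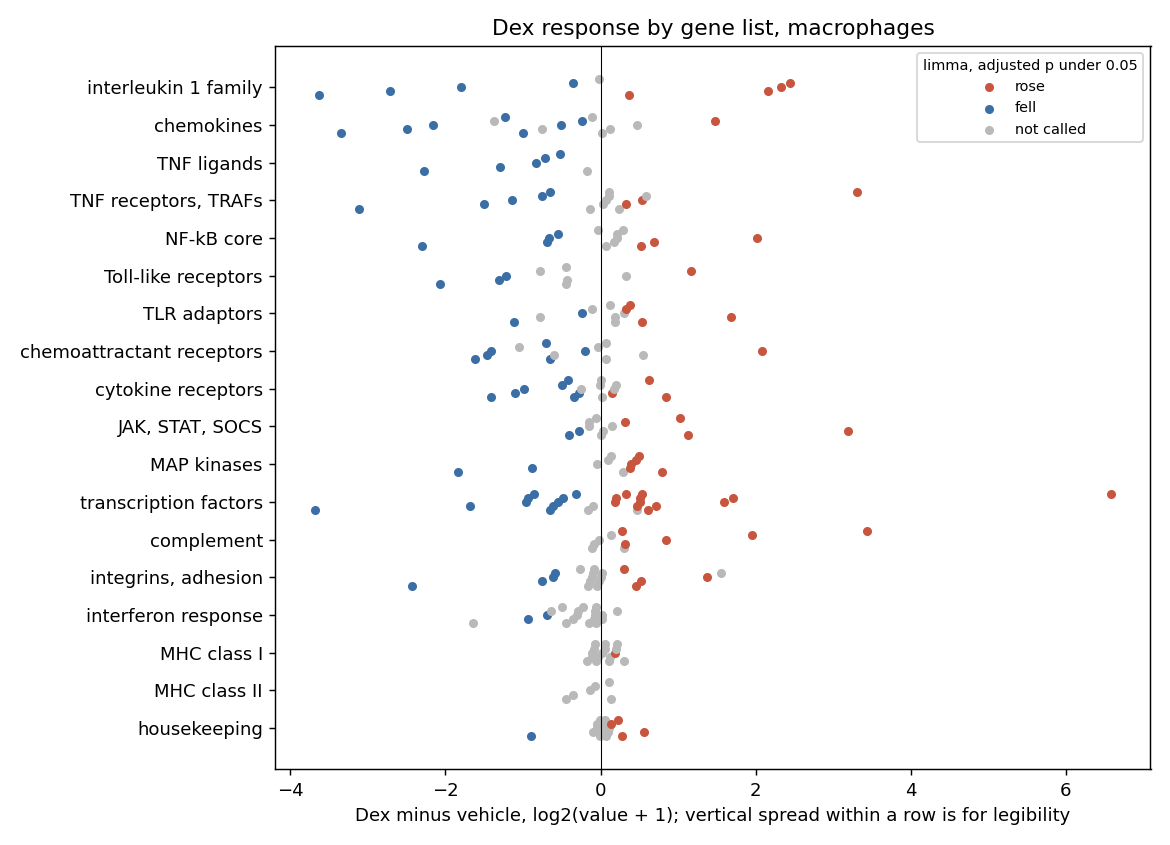
Log2 change with Dex (x axis) of each gene in 18 of the gene lists, one point per gene and one row per list, coloured by the limma call. In TNF ligands no gene rose, in complement none fell, and in the interferon response, MHC class I and MHC class II most points are grey. Those of the MHC lists lie near 0, while the interferon-response points run from -1.64 to 0.21.

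Among sensors of bacterial products, TLR2, which senses lipoproteins, read 2574, 2542 and 2320.2 units with vehicle and 5215 and 5869 with Dex, a 2.24-fold rise. Its partner TLR1 read 731, 688 and 637 units with vehicle and 266 and 284 with Dex, a 2.49-fold fall. TLR4, the lipopolysaccharide receptor, fell from 573 ± 45.9 to 246 ± 0.24 units, and its co-receptor CD14 read 206, 205 and 154 units with vehicle and 40.96 and 46.8 with Dex, a 4.29-fold fall. LY96, the MD-2 chain of that receptor, read 444, 419.9 and 393 units with vehicle and 301 and 316 with Dex; the groups did not overlap but it was not called (adjusted p = 0.191), though 4 of the 22 alternatives called it lower. In all, 1 of 9 receptor genes rose and 3 fell, beside 22.4% and 25.1% of all tested probes. The same shares stand for the adaptors and kinases that follow. Of 12 adaptors and kinases 4 rose and 2 fell, and without Mac_Dex replicate 1 these were 5 and 1. IRAK3, the inhibitory member of the IRAK kinases, read 155, 167 and 166 units with vehicle and 510.1 and 536 with Dex, a 3.22-fold rise, and IRAK1 rose by 0.33 in log2. IKBKE, a kinase of interferon induction, fell from 350.2 ± 51.4 to 164 ± 46.99 units. IRAK2 read 347, 340.4 and 277 units with vehicle and 157 and 219.9 with Dex, without overlap; it was not called (adjusted p = 0.0563) but was called lower in 8 of the 22 alternatives, among them the fit of macrophage samples only (log2 change -0.78, adjusted p = 0.00745).

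In cytokine signalling SOCS1 and the kinases JAK1 and JAK2 rose. SOCS1, a feedback inhibitor of these kinases, read 72.3, 67.6 and 90.4 units with vehicle and 695 and 711 with Dex, a 9.16-fold rise. JAK1 read 375, 355 and 338 units with vehicle and 804 and 748 with Dex and JAK2 read 898, 825 and 797 units with vehicle and 1691 and 1722 with Dex, 2.18-fold and 2.03-fold higher with no overlap. STAT3 rose by 0.31 in log2, and TYK2 fell by 0.41 on the log2 scale, though not after median-centring (log2 change -0.18, adjusted p = 0.159). Of 12 genes of this list 4 rose and 2 fell; after median-centring neither fall was called, and without Mac_Dex replicate 1 only 1 was. Of 16 cytokine receptors 3 rose and 7 fell. Both lists stand beside 22.4% of all tested probes rising and 25.1% falling. CSF2RB, the common beta chain of several growth factor receptors, read 195, 178 and 176 units with vehicle and 54.2 and 84.7 with Dex, a 2.63-fold fall. KIT, the stem cell factor receptor, went from 65.4 ± 5.59 to 30.5 ± 8.03 units and the IL6 receptor chain IL6R from 1443 ± 98.1 to 1025 ± 103 units. IL13RA1, a chain of the IL4 and IL13 receptor, rose from 827 ± 73.3 to 1486 ± 166 units, and IL6ST, the signalling chain of the IL6 family, from 834 ± 66.3 to 1287 ± 60.6 units. CSF1R, the macrophage growth factor receptor, read 703, 626 and 527 units with vehicle and 562 and 677 with Dex (adjusted p = 0.984).

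Of 13 receptors for chemoattractants 6 fell and 1, CXCR4, rose, beside 25.1% and 22.4% of all tested probes. CX3CR1, the fractalkine receptor, read 389, 292 and 385 units with vehicle and 122 and 106 with Dex, a 3.12-fold fall. PTGER4, a prostaglandin E2 receptor, read 1074, 866 and 815 units with vehicle and 328 and 355 with Dex, a 2.69-fold fall. CCR1, a receptor of CCL3 and CCL5, went from 556 ± 56.5 to 339 ± 37.2 units. CCR2, the receptor of CCL2, read 582, 549 and 528 units with vehicle and 551 and 613 with Dex (adjusted p = 0.352). Without Mac_Dex replicate 1, 3 of the 6 falls were called.

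Among adhesion and matrix genes, ITGA5 rose and ICAM1 and PLAU fell. ITGA5, the alpha chain of the fibronectin receptor, read 8521, 8012 and 7286 units with vehicle and 20571 and 20617 with Dex, a 2.59-fold rise. FN1, which encodes fibronectin, read 60.2, 51.96 and 52.6 units with vehicle and 148 and 177 with Dex; the groups were well apart, 2.97-fold in the means, but in the fit over 4 groups it was not called (adjusted p = 0.0541). ICAM1, the ligand of leukocyte integrins, read 1478, 1331 and 1264 units with vehicle and 209 and 302 with Dex, a 5.32-fold fall, and the integrin chains ITGAL and ITGA4 fell 1.68-fold and 1.53-fold. Of 19 adhesion genes 4 rose and 4 fell, with 9 falling under quantile normalization, and ITGB1, the partner of ITGA5, read 7486, 7149.5 and 6591 units with vehicle and 7234 and 7035 with Dex (adjusted p = 0.859). The urokinase PLAU, a protease that activates plasminogen, read 1368, 1691 and 1369 units with vehicle and 338 and 419 with Dex, a 3.90-fold fall, and its receptor PLAUR went from 1596 ± 149 to 949 ± 169.5 units, so that 2 of 6 urokinase and matrix genes fell and none was called as rising in limma, with 1 (FN1) at an unadjusted p under 0.05 and called in 10 of the 22 alternatives. SPP1, which encodes osteopontin, read 79234, 74477 and 72802 units with vehicle and 66654 and 66246 with Dex (adjusted p = 0.0809).

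Of 25 transcription factors 12 rose and 10 fell, or 22 in all, beside 47.5% of all tested probes. The list was chosen with earlier results of these data known, so this count is no support. Besides ZBTB16 and CEBPB, the rises included NFIL3, a bZIP repressor (1258 ± 42.5 to 2062 ± 96.5 units), PPARG, the lipid-sensing nuclear receptor (578 ± 51.3 to 819.5 ± 6.97 units), and AHR, the aryl hydrocarbon receptor (859 ± 35.4 to 1189 ± 36.4 units). CTNNB1, which encodes beta-catenin, rose from 9613 ± 519 to 13848 ± 16.2 units. LEF1, a DNA-binding partner of beta-catenin, read 35.9, 30.6 and 26.96 units with vehicle and 1.47 and 1.52 with Dex, at least 1.56-fold lower. TCF4, a basic helix-loop-helix factor, went from 127 ± 9.76 to 42.6 ± 25.2 units, with log2 change -1.05, adjusted p = 0.00641 without Mac_Dex replicate 1. BCL6, a repressor, went from 747 ± 97.6 to 382 ± 32.9 units. NFATC3, a calcium-regulated factor, read 1220.4, 1160.1 and 1184 units with vehicle and 722 and 788 with Dex, a 1.57-fold fall. The related NFATC1 and NFATC2 fell 1.81-fold and 1.46-fold, calls that ended without Mac_Dex replicate 1 (log2 change -0.68, adjusted p = 0.115 and log2 change -0.42, adjusted p = 0.071), when 6 of the 10 falls were called. The early-response factors EGR1 and EGR2 fell 1.86-fold and 3.62-fold, with EGR2 at 519, 427 and 431 units with vehicle and 125 and 129 with Dex. Among kinases, MAPK14, which encodes p38 alpha, read 1452, 1323 and 1246 units with vehicle and 1846 and 1932 with Dex, higher in both Dex samples. Of 11 MAP kinase pathway genes 5 rose and 2 fell, beside 22.4% and 25.1% of all tested probes.

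Of 10 complement genes 5 rose, beside 22.4% of all tested probes, with none falling in limma and none at an unadjusted p under 0.05; with the housekeeping scaling, with quantile normalization, and without Mac_Vehicle replicate 5 or Mac_Dex replicate 5, 1 fell. CFP, which stabilizes the alternative-pathway convertase, read 28.6, 47.7 and 31.8 units with vehicle and 134 and 144 with Dex, a 3.85-fold rise. C1QB, a chain of C1q, rose from under 9 units to 43.9 and 31.6, at least 1.89-fold, and was included through its Dex level alone. C5, the source of the anaphylatoxin C5a, read 62.6, 57.6 and 73.3 units with vehicle and 126 and 106 with Dex. Without Mac_Dex replicate 5, 3 of the 5 rises were called. C3, the central component, read 432, 379 and 343 units with vehicle and 337 and 389 with Dex (adjusted p = 0.6). Costimulatory and checkpoint genes fell in 4 of 8 cases and rose in 1, beside 25.1% and 22.4% of all tested probes. CD83, a marker of activated antigen-presenting cells, read 718, 616 and 599 units with vehicle and 122 and 147 with Dex, a 4.79-fold fall, and HAVCR2, which encodes TIM-3, went from 5249 ± 232 to 3656 ± 118 units. CD80, CD86 and CD274 were under 20 units in both groups.

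Of 13 survival and arrest genes 4 rose and 4 fell, beside 22.4% and 25.1% of all tested probes. MCL1, a survival factor of the BCL2 family, read 11205, 11471 and 10616 units with vehicle and 18031 and 19818 with Dex, a 1.71-fold rise that was lost with quantile normalization (log2 change 0.08, adjusted p = 0.206), while BCL2 itself fell from 369 ± 10.9 to 241 ± 29.7 units. CDKN1A, the p21 inhibitor of the cell cycle, read 6167, 5749 and 5429 units with vehicle and 3650.2 and 3861 with Dex, lower in both Dex samples. In the TGF-beta and Notch list 3 rose and 2 fell of 9, with 4 falls without Mac_Vehicle replicate 5. NOTCH2 read 2313, 2101 and 2054 units with vehicle and 3927 and 4181 with Dex, a 1.88-fold rise, and NOTCH1 read 807, 678 and 609 units with vehicle and 323 and 451 with Dex, a 1.80-fold fall, so that these paralogous receptors moved in opposite directions with no overlap in either. SKI, a repressor of TGF-beta signalling, rose from 880.2 ± 48.3 to 1346 ± 50.7 units and the receptor TGFBR1 fell from 963 ± 124 to 586 ± 14.3 units.

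Of 13 macrophage and scavenger genes 2 rose, CD163 and the tetraspanin CD81, the latter turning the other way with quantile normalization (log2 change -0.20, adjusted p = 0.0425). CD36, the oxidized lipid receptor, fell by 0.19 on the log2 scale, but not after median-centring (log2 change 0.04, adjusted p = 0.639) or without Mac_Dex replicate 1 (log2 change -0.14, adjusted p = 0.117), and quantile normalization gave 6 falls in this list, against 1; leaving out single samples gave 0 to 3. MSR1, a scavenger receptor, read 10184, 9555 and 9292 units with vehicle and 6074 and 6145 with Dex. Its groups did not overlap, but the fit over 4 groups did not call it (adjusted p = 0.055). MSR1, FN1 and SLAMF7 (336 ± 34.5 units with vehicle and 193 ± 7.30 with Dex) all had monocyte levels under 20 units. In the fit of macrophage samples only, their adjusted p was 8.47e-05, 0.000268 and 0.00154, and each was called. With values under 20 set to 20 it was 6.96e-06, 2.5e-07 and 0.000101. That setting removes the spread among low monocyte values, so its smaller p-values are no added support. Fc receptor probes fell in 3 of 6 cases. FCGR1A/B, a probe shared by paralogues, read 70.05 ± 20.8 units with vehicle and 34.9 ± 8.12 with Dex. The other falls were FCGR2A (log2 change -0.35) and FCGR2A/C (log2 change -0.27), probes that share a gene, and the groups of FCGR2A/C overlapped. These calls ended without Mac_Dex replicate 1, where FCGR1A/B had log2 change -0.72. The inhibitory receptor LILRB4 rose from 939.8 ± 64.5 to 1332 ± 60.6 units and LAIR1 fell from 1952 ± 96.1 to 1411 ± 153 units, 1 and 1 of 5. Of 6 antimicrobial and oxidase genes 2 rose and 1 fell, and the number of falls changed without Mac_Dex replicate 5. The rises, NOS2 and DEFB1, were included through their Dex level alone, so their direction was fixed by the inclusion rule. With values under 20 set to 20, the call of DEFB1 was lost (log2 change 0.28, adjusted p = 0.153). The oxidase subunit NCF4 fell from 1069 ± 46.9 to 752 ± 59.3 units, and NOS2, the inducible nitric oxide synthase, rose from under 9 units to 21.8 and 40.7 units, a call that ended without Mac_Dex replicate 5 (log2 change 2.09, adjusted p = 0.0644).

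Of 19 interferon-response genes none rose in limma, also at an unadjusted p under 0.05, and 2 fell, IRF8 and IRF1, beside 22.4% and 25.1% of all tested probes. At an unadjusted p under 0.05, 5 fell in limma. The median log2 change of the list was -0.23 beside -0.03 over all tested probes. IRF8, a factor of the monocyte lineage, read 998, 1056 and 1013 units with vehicle and 515 and 549.5 with Dex, a 1.92-fold fall. The fall of IRF1 (432 ± 70.4 units with vehicle and 274 ± 97.1 with Dex) ended without Mac_Dex replicate 1 (log2 change -0.32, adjusted p = 0.147). Among antiviral genes, MX1 read 4217, 3599 and 2747 units with vehicle and 2194 and 3979 with Dex, and IFIT2 read 822, 687 and 509 units with vehicle and 266 and 679 with Dex, both with overlap. Mac_Dex replicate 1 was below replicate 5 in 18 of the 19 genes, and the summed signal of the list was 22061, 19974 and 17380 units with vehicle and 14890 and 20338 with Dex. Without Mac_Dex replicate 5, 8 of the genes fell, without Mac_Vehicle replicate 5, 5 did, and without Mac_Dex replicate 1, 1 did. Of 16 MHC class I and proteasome genes the proteasome subunit PSMB7 rose, by 0.18 in log2 and not without Mac_Dex replicate 1 (log2 change 0.17, adjusted p = 0.0619). None fell in limma and 1 at an unadjusted p under 0.05, and median-centring gave 10 rises. B2M, the invariant chain of class I, read 82942, 77794 and 72529 units with vehicle and 76845 and 80637 with Dex (adjusted p = 0.813). Of 6 MHC class II genes none was called in limma and none had an unadjusted p under 0.05; median-centring called 2 of them higher, quantile normalization 1 lower, the housekeeping scaling 2 lower and the fit without Mac_Vehicle replicate 5 3 lower.

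**Figure D4:**
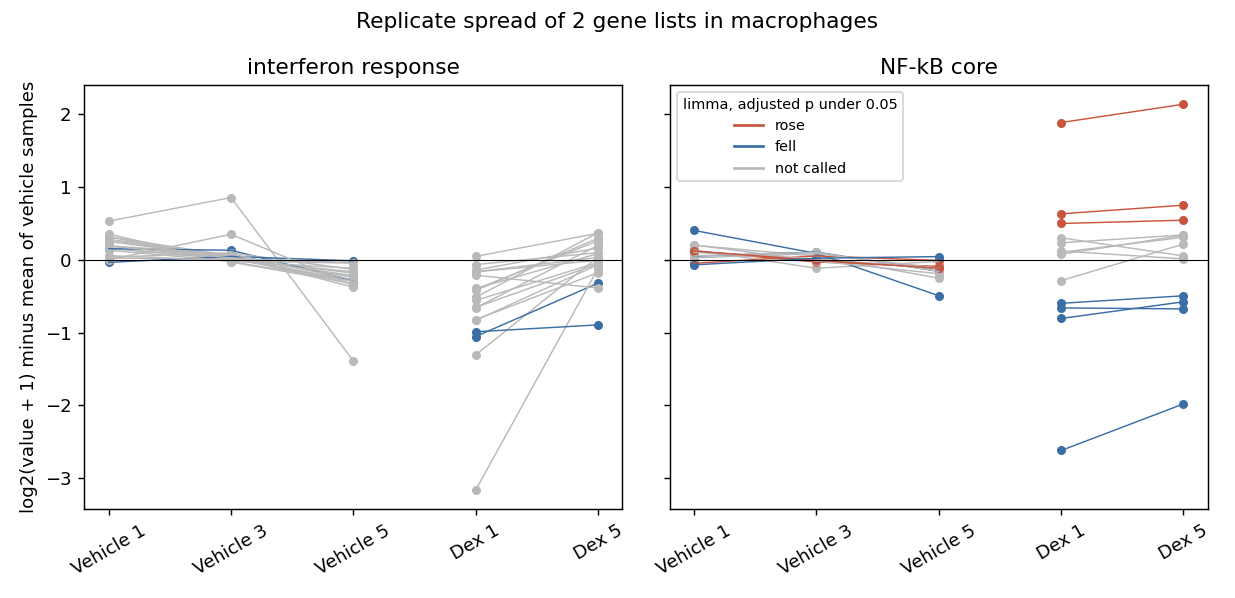
Log2 value of each gene minus its mean over the vehicle samples (y axis) in the 5 macrophage samples, for 19 interferon-response genes (left) and 13 NF-kB genes (right), one line per gene within each group, coloured by the limma call. On the left Dex replicate 1 lies below Dex replicate 5 in 18 of 19 genes. On the right both Dex samples lie above all vehicle samples in 5 genes, NFKBIZ among them, and below in 4, BCL3 among them.

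Of the remaining lists, 2 of 5 autophagy genes were called, with ATG10 higher and ATG7 lower (1189.5 ± 74.8 units with vehicle and 830.2 ± 30.5 with Dex). Of 10 immunoreceptor kinases and adaptors 2 rose and 3 fell, among them LCP2, the adaptor SLP-76 (2961 ± 273 to 4482 ± 76.6 units), and the kinase FYN (575 ± 32.4 to 332 ± 18.1 units). Of 4 SLAM genes SLAMF1 rose and CD244 fell (254 ± 16.1 to 138 ± 8.55 units). Of 7 surface peptidase and tetraspanin genes 4 rose and 2 fell, with NT5E, the ectonucleotidase CD73, at 1906, 2037 and 1698 units with vehicle and 2341 and 2647 with Dex; neither fall was called without Mac_Dex replicate 1. Of 5 genes of anti-inflammatory mediators none was called in limma, where IL16 alone, at 61.2 ± 3.10 units with vehicle and 41.7 ± 11.4 with Dex, had an unadjusted p under 0.05 (0.0409). Of 17 housekeeping genes 4 rose and 1 fell, with 1 rise without Mac_Dex replicate 1, 7 without Mac_Vehicle replicate 1 and 11 after median-centring. GAPDH read 34198, 33885 and 31115 units with vehicle and 31496 and 32289.6 with Dex and HPRT1 read 1956, 2049 and 1967 units with vehicle and 2013 and 1971 with Dex, both with overlap (adjusted p = 0.424 and 0.987). ALAS1, an enzyme of haem synthesis, read 4807, 5033 and 4253 units with vehicle and 2375 and 2676 with Dex, a 1.86-fold fall, and SDHA rose by 0.56 in log2. Among the 27 genes outside the lists 3 rose and 6 fell. KCNJ2, an inward-rectifier potassium channel, read 197, 198 and 182 units with vehicle and 687 and 618 with Dex, a 3.39-fold rise, and CD164, a sialomucin, read 11395, 10836 and 10686 units with vehicle and 20336 and 20638 with Dex, a 1.87-fold rise. TAGAP, a GTPase-activating protein, went from 414 ± 46.7 to 187 ± 33.8 units.

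The response was set against that of THP-1 monocytes, in which 39.1% of tested probes were called with Dex. Of the 84 genes that rose in macrophages 47 rose and 4 fell in monocytes, and of the 94 that fell 55 fell and 4 rose. The difference of the responses, tested as the interaction term, was called for 96 of the 365 genes, beside 25.9% of all tested probes. CEBPB had a log2 change of 1.59 in macrophages and 0.68 in monocytes (adjusted p of the difference 4.52e-06). JAK1, ITGA5, MCL1 and CTSC were also more positive in macrophages, by 0.86, 0.78, 0.68 and 0.72. CXCR4 rose in both states and more in macrophages, 2.09 against 1.73 (difference 0.35, adjusted p = 0.0264). NFKBIA also rose in both but less in macrophages, 0.69 against 1.46 (difference -0.77, adjusted p = 9.96e-06).

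**Figure D5:**
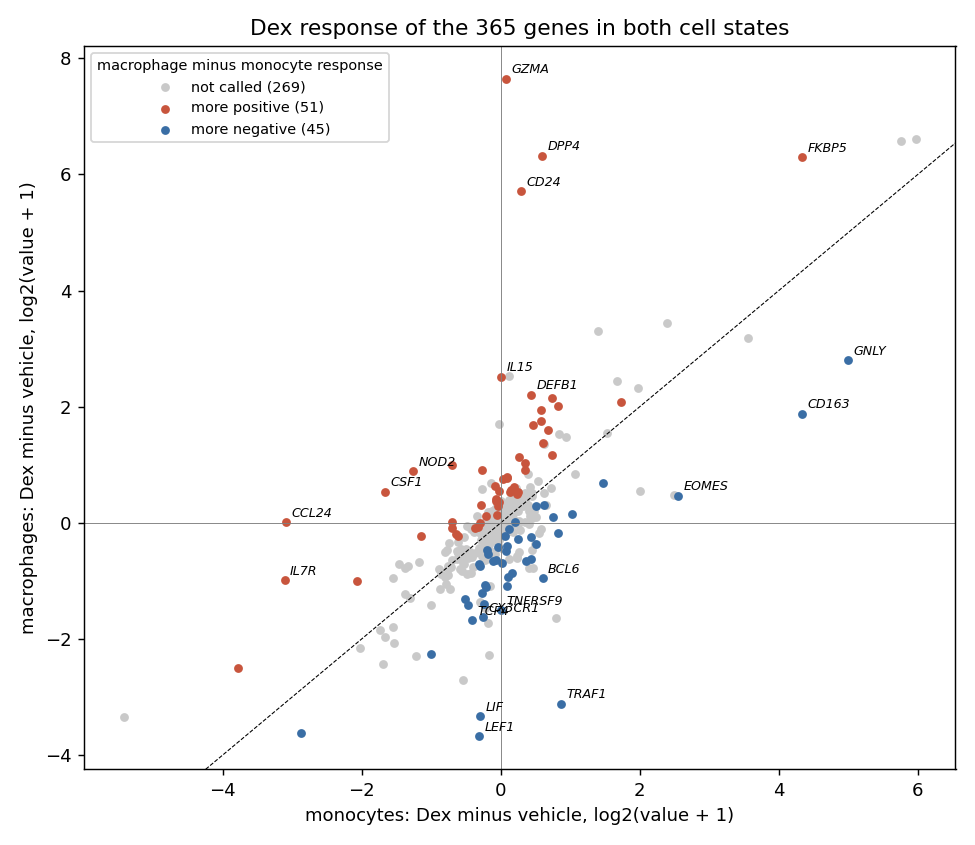
Log2 change with Dex in macrophages (y axis) against that in monocytes (x axis) for the 365 genes, coloured by the test of the difference; the dashed line marks equal changes and the 20 labelled genes have the largest called differences in each direction. GZMA, DPP4 and CD24 lie at the top near 0 in monocytes, and TRAF1, LEF1 and LIF lie at the bottom.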

How the data were processed

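Endogenous RNA was measured in 11 samples on the NanoString nCounter from 50 ng of total RNA per sample, per the labels' protocols, with quality control in nSolver, per the series' design text; how values were scaled and background was treated is not stated in the sources used here. The deposited values are a normalized linear signal per probe and not raw counts, so no count test was run and depth per probe is unknown. The table held 608 probes, 594 of them endogenous, 8 negative and 6 positive controls; negative controls reached at most 15.6 units. Of the endogenous names 565 are current RefSeq symbols and 9 are older ones.

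The 379 probes with a mean of at least 20 units in 1 of 4 groups were tested with limma 3.58.1 (R 4.3.3) on log2(value + 1), with group means only, eBayes with a trend and Benjamini-Hochberg adjustment, called at 0.05. All 11 samples entered the fit, with 7 residual degrees of freedom. The contrasts were Mac_Dex minus Mac_Vehicle and its difference from the monocyte contrast. The procedure was tested on simulated data. For genes with a group mean under 20 units, the size of the log2 change is not measured. Adding 1 shrinks such changes, but values in the range of the negative controls can also enlarge or turn them. Folds are ratios of group means, with a mean under 20 replaced by 20 and written as "at least". Values are mean ± SD (n = 3 with vehicle, n = 2 with Dex). The p-values rest on the spread among these samples, and that spread may be technical.

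Members and the 35 overlapping gene lists were chosen with earlier results of these data known. Named genes were the 15 largest rises and falls without overlap, up to 3 of each and the 2 brightest uncalled genes per list, the 10 largest differences of response in each direction, and 14 genes fixed by name; 38 genes that fell outside this rule, such as RELA, PPARG, FN1 and KCNJ2, were chosen after their values were seen. Alternatives were the pseudocount, the filter, 3 other scalings, values under 20 set to 20, no trend, a replicate block, macrophage samples only, and leaving out each sample. Some genes are not reported here. Start regions came from RefSeq (GRCh38.p14).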

Additional observations from a re-analysis of the deposited data

Results flagged for a closer look

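The genes below were singled out because their Dex response differed between macrophages and monocytes by the interaction test in limma (adjusted p under 0.05). The value given is the macrophage minus the monocyte log2 change. They are the 10 with the largest difference in each direction among the 96 called, and no cause was tested.

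In macrophages the change was more positive for GZMA (7.57), DPP4 (5.73) and CD24 (5.41), which stayed under 10 units in each monocyte sample, so that 3 of the 4 groups lie under 20 units and the size is not measured. CCL24, an eosinophil attractant, fell in monocytes from 353 ± 18.2 to 41.3 ± 10.2 units and read 35.3 ± 5.79 units with vehicle and 35.5 ± 5.60 with Dex in macrophages (3.10, adjusted p = 4.52e-06). CSF1, the macrophage growth factor, read 265 ± 31.9 units with vehicle and 384 ± 43.5 with Dex in macrophages and under 20 units in monocytes (2.21). Its log2 change in macrophages, 0.54, was not called (adjusted p = 0.289). With monocyte levels under 20 units, the size of its difference is not measured. NOD2 fell in monocytes from 77.6 ± 8.30 to 32.5 ± 8.25 units and read 50.7 ± 19.96 units with vehicle and 90.4 ± 22.1 with Dex in macrophages (2.14, adjusted p = 0.00329). IL7R averaged 90.8 ± 10.2 units with vehicle and 10.04 ± 3.96 with Dex in monocytes and averaged 295 ± 25.9 units with vehicle and 149 ± 25.5 with Dex in macrophages (2.12). FKBP5 differed by 1.96, in samples kept partly for its rise. For IL15 (2.50) 3 of the 4 group means lay under 20 units, and for DEFB1 (1.77) no group mean reached 30 units.

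The macrophage change was more negative for BCL6, which averaged 747 ± 97.6 units with vehicle and 382 ± 32.9 with Dex in macrophages, and in monocytes 37.7 ± 4.70 units with vehicle and 58.7 ± 14.2 with Dex (-1.56, adjusted p = 0.000572), and for CX3CR1, which averaged 356 ± 54.99 units with vehicle and 114 ± 11.2 with Dex in macrophages, and in monocytes 359 ± 9.06 units with vehicle and 301 ± 5.44 with Dex (-1.37, adjusted p = 2.37e-05). TCF4 averaged 54.1 ± 3.72 units with vehicle and 40.9 ± 9.21 with Dex in monocytes and 127 ± 9.76 units with vehicle and 42.6 ± 25.2 with Dex in macrophages (-1.26, adjusted p = 0.0399). GNLY rose in both states, from 15.9 ± 4.21 to 528 ± 3.93 units in monocytes (-2.20), with a vehicle level under 20 units there. CD163 rose from 1.00 ± 0.00 to 39.3 ± 2.87 units in monocytes, and its difference of -2.45 turned to 0.94 (adjusted p = 0.00179) with values under 20 set to 20. EOMES (-2.08), TNFRSF9 (-1.50), LIF (-3.04), LEF1 (-3.37) and TRAF1 (-3.98) had both monocyte groups or 1 of them under 20 units.

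Several of these calls depended on the setting. The difference was no longer called in 12 of 20 alternatives for TCF4, in 12 of 20 for TNFRSF9, in 11 of 19 for DEFB1, in 6 of 19 for IL15, in 3 of 19 for LIF, in 2 of 19 for EOMES and in 1 of 20 each for NOD2, TRAF1 and CD163. The sign turned in 1 further alternative, values under 20 set to 20, for DEFB1, EOMES and CD163. Without Mac_Dex replicate 1 the difference was -0.63 (adjusted p = 0.198) for TCF4 and -1.18 (adjusted p = 0.167) for TNFRSF9, and without Mac_Dex replicate 5 it was 1.27 (adjusted p = 0.152) for DEFB1 and 1.76 (adjusted p = 0.139) for IL15. The other 11 genes kept the call in each alternative run.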

How the results depend on the processing

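Over all 379 tested probes, rises in macrophages numbered 85, falls 95, and response differences 51 more positive and 47 more negative. Median-centring gave 152 rises. Numbers 1 and 5 occur in both macrophage groups but nothing in the labels pairs them, and deviations of same-numbered samples correlated at -0.277 for number 1 and -0.415 for number 5. With the number within cell state as a replicate block, rises were 64, falls 66, and differences 21 and 11. Leaving out 1 sample gave 72 to 99 rises, 67 to 112 falls (lowest without Mac_Dex replicate 1), 34 to 62 more positive and 30 to 52 more negative differences (lowest without Mac_Dex replicate 1, at 30). Where an arm was left with 1 sample, that sample was assumed to vary like the other groups. The other settings kept these counts within 1.5 times. Of the 123 named genes called in macrophages, 17 lost the call with the block, among them TNF (log2 change -0.82, adjusted p = 0.082), 13 without Mac_Dex replicate 1 and at most 6 under any other setting. Of all genes called in macrophages, CD81 and OAZ1 (from 0.136 to -0.366) were called in the opposite direction with quantile normalization and none with any other setting. Log2 changes of named genes that changed sign were as follows, and the cause was not tested. With the housekeeping scaling these were B2M (-0.009), CCL24 (-0.017), CSF1R (-0.024), HPRT1 (-0.027) and ITGB1 (-0.015). With median-centring these were C3 (0.143), CD36 (0.038), CTSG (0.218), GAPDH (0.173), NFKB1 (0.190), PDCD1LG2 (0.118), SPP1 (0.041), TCF7 (0.065), TFRC (0.217) and TGFB1 (0.078). With quantile normalization these were C3 (0.132), CD81 (-0.202), HPRT1 (-0.045), ITGB1 (-0.115), NFKB1 (0.072) and TFRC (0.018). With the replicate block these were CCL24 (-0.049), TFRC (0.022) and TNFAIP3 (-0.022). With values under 20 set to 20 these were the response difference of DEFB1 (-0.032), the response difference of EOMES (0.105) and the response difference of CD163 (0.943). When 1 sample was left out, the range crossed 0 for B2M (-0.029 to 0.068), C3 (-0.184 to 0.022), CASP1 (-0.012 to 0.181), CCL24 (-0.145 to 0.169), CCR2 (-0.004 to 0.150), CSF1R (-0.129 to 0.140), CTSG (-0.054 to 0.060), HPRT1 (-0.014 to 0.022), IFIT2 (-1.308 to 0.040), ITGB1 (-0.036 to 0.056), MX1 (-0.660 to 0.198), NFKB1 (-0.285 to 0.217), PDCD1LG2 (-0.367 to 0.175), TCF7 (-0.602 to 0.186), TFRC (-0.059 to 0.045) and TNFAIP3 (-0.169 to 0.237). Signal over background limits genes near 20 units, where negative controls reach 15.6.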

Other observations

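Some genes outside the lists also changed with Dex. MBP, whose gene also gives the Golli proteins of leukocytes, went from 1085 ± 107 to 644 ± 42.1 units. LITAF, an endosomal protein named for its induction by lipopolysaccharide, went from 685 ± 68.6 to 483 ± 11.99 units. NCAM1, the adhesion molecule CD56, went from 3452 ± 227 to 2791 ± 28.6 units, a fall that was not called after median-centring (log2 change -0.08, adjusted p = 0.398). TFRC, the transferrin receptor, read 3896, 3933 and 3516 units with vehicle and 3625 and 3896 with Dex and SLC2A1, the glucose transporter GLUT1, read 514, 532 and 431 units with vehicle and 529 and 524 with Dex; neither was called (adjusted p = 0.937 and 0.374).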
